A study of Homo sapiens with 6 samples.

Results

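The genes that encode the m6A writer complex, together with METTL16 and METTL5, were examined in PANC-1 cells in which METTL16 had been silenced. PANC-1 is a long-established line of human pancreatic ductal carcinoma cells. The 10 genes, METTL16, METTL3, METTL14, WTAP, VIRMA, ZC3H13, RBM15, RBM15B, CBLL1 and METTL5, were taken by gene symbol from a table of 58735 genes, and all 10 passed the filter on low counts. RNA-seq covered 2 groups of 3 samples, which received either a control siRNA (si-NC) or a METTL16 siRNA (si-METTL16). All samples came from this single line, and the transfection label of the controls reads WT although their titles read si-NC. For the sequenced cells, the methods speak of biological triplicates and of stable transfection with siRNA. Another section of the methods names shRNA for METTL16 silencing in PANC-1, with puromycin selection of stable cells. Neither the siRNA that was sequenced nor the time between transfection and harvest is named.

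N6-methyladenosine (m6A) is laid down on mRNAs by a nuclear complex. METTL3 is its catalytic subunit, METTL14 binds the RNA substrate as its partner, and WTAP, VIRMA, ZC3H13, RBM15, RBM15B and CBLL1 (HAKAI) form the regulatory part that places the pair on its targets. METTL16 and METTL5 act outside this complex. METTL16 methylates the U6 snRNA and hairpins of the MAT2A mRNA, which encodes a S-adenosylmethionine synthetase, and METTL5, stabilized by TRMT112, methylates the RNA of the small ribosomal subunit.

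After silencing, METTL16 fell to 35.9% of its control level, and no other member showed a drop that passed the test. RBM15, RBM15B, WTAP and METTL3 rose by 1.23- to 1.56-fold. METTL14, VIRMA, ZC3H13, CBLL1 and METTL5 were not called. In all, 5 of the 10 members were called, 4 higher and 1 lower, at a Benjamini-Hochberg adjusted p under 0.05 in edgeR's quasi-likelihood test, against 35.9% of all 15089 genes tested (18.4% higher and 17.5% lower). The median log2 fold change was 0.26 over the 9 members other than METTL16 and -0.004 over all genes tested. The values of the groups were fully separate for 8 of the 10 members, against 50.9% of all genes tested. Of these 8, 6 lay higher after silencing and 2 lower, where the shares over all genes were 25.7% and 25.2%. These counts include METTL16, the target of the siRNA. Of the 9 members other than METTL16, 4 were called and 7 were separate. With so many genes called in the whole table, a call alone does not set a member apart.

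The siRNA targets are shown here because they are what distinguishes METTL16 from the other members in this design. The primer list of the study gives 3 siRNAs against METTL16 and a control siRNA, each as a target of 19 bases written 5′ to 3′. The titles of the silenced samples, si-METTL16-1 to si-METTL16-3, carry the same numbers as these siRNAs. Whether the numbers mark replicates of a single siRNA or different siRNAs is not stated, and the samples are called replicates here. Capitals mark bases 12 to 18 of the target, which would pair with the seed (bases 2 to 8) of an antisense strand complementary to it.
METTL16-1: ccttgagactcAACTATAt
METTL16-2: ccgcctagttcTGTTAATa
METTL16-3: ccaccaagtaaGCGAAGAa
NC: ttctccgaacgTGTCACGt
On GRCh38 with GENCODE v44, the 3 METTL16 targets lie on the minus strand of chromosome 17 and all fall in the coding sequence. METTL16-1 lies in exon 3 (chr17:2477757-2477775), METTL16-2 in exon 6 (chr17:2464302-2464320) and METTL16-3 in exon 9 (chr17:2420883-2420901). Each had an exact match in the transcripts of METTL16 and of no other gene. In the transcripts of the other 9 members, the nearest sites had 5 mismatches for METTL16-1 (in WTAP), 6 for METTL16-2 (in WTAP) and 6 for METTL16-3 (in METTL3). The control target had no exact match in any transcript. The 7 capital bases of METTL16-1 occurred in the 3′ UTR of METTL14, those of METTL16-2 in the 3′ UTRs of WTAP, VIRMA and CBLL1, and those of METTL16-3 in that of no other member. Over 12383 tested genes with a MANE Select transcript, 11.4%, 20.4% and 1.49% of 3′ UTRs held these letters on the sense strand, in the same order. These 3′ UTRs differ in length, and a match of letters is not a binding site.

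**Figure D1:**
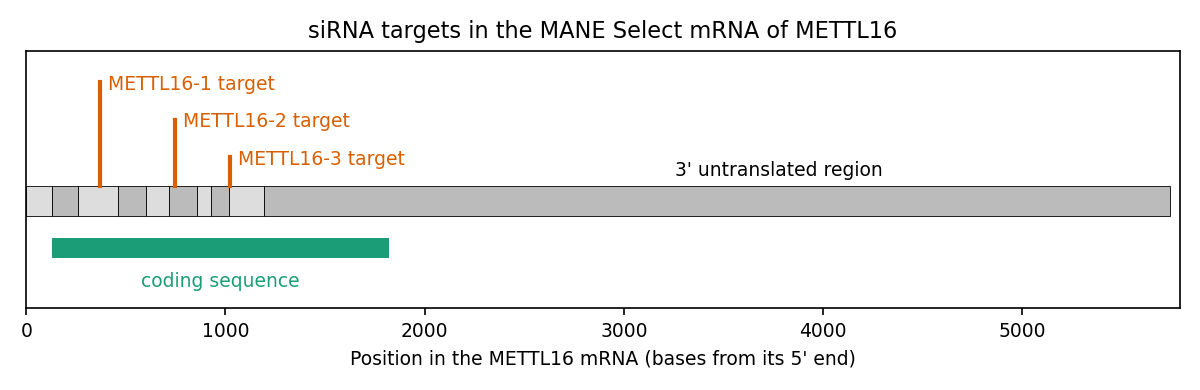
Position of the 3 siRNA targets (orange) in the METTL16 mRNA of 5740 bases, in bases from its 5′ end; grey blocks are exons and the green bar is the coding sequence. The targets start at bases 369, 746 and 1022, all within the coding sequence, which runs from base 131 to base 1819.

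The counts of the 6 samples summed to between 15725298 and 18054436, at which 3 counts correspond to between 0.167 and 0.192 CPM (counts scaled to a common total by TMM), so every member was measured far above this limit. Of the ductal epithelial markers, KRT8, KRT18, KRT19 and SOX9 were abundant, while KRT7 (58 to 133 counts) and EPCAM (98 to 209 counts) were low. Of these 6 markers, 3 fell and none was called higher. KRT19 fell by 1.40, KRT7 by 0.84 and SOX9 by 0.25 on the log2 scale (adjusted p = 0.00111, 0.0117 and 0.00987, edgeR), while the uncalled KRT8, KRT18 and EPCAM had log2 fold changes of -0.23, 0.20 and 0.44. The summed level of the 6 was 3039 to 4108 CPM in control and 3266 to 3566 CPM in silenced samples. All 5 acinar, 3 islet, 4 leukocyte and 3 endothelial markers had at most 15 counts in every sample, as did 3 of 4 fibroblast markers, the exception being COL1A1, which rose by 1.27 on the log2 scale (adjusted p = 9.4e-05, edgeR). The part of these markers in the results was not tested. The summed level of the proliferation markers MKI67, PCNA and TOP2A was 543 to 642 CPM in si-NC and 1210 to 1337 CPM in si-METTL16 samples, and the part of this shift in the results on the writer genes was not tested. In these bulk samples, fewer cells with a transcript and less of it per cell cannot be told apart.

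METTL16 (ENSG00000127804, minus strand of chromosome 17 from 2405562 to 2511891) had 91.5, 96.7 and 100.6 CPM in si-NC replicates 1, 2 and 3. In si-METTL16 replicates 1, 2 and 3 it had 34.8, 33.9 and 34.9 CPM. The control samples were the more variable, with an SD of 4.58 CPM against 0.571 CPM after silencing (n = 3 each), and the groups lay far apart. The log2 fold change was -1.48 with a 95% interval from -1.64 to -1.32 (adjusted p = 8.3e-05, edgeR). By p-value METTL16 ranked 13th among the 15089 genes tested, and by log2 fold change it was the 209th from the lowest. No annotated gene with counts shares exon bases with METTL16 on the opposite strand, and the call held with each sample left out in turn (log2 fold change from -1.52 to -1.45).

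In the catalytic core, METTL3 (ENSG00000165819, chromosome 14 from 21498133 to 21511375) had 24.7, 25.2 and 23.3 CPM in si-NC replicates 1, 2 and 3 and 27.4, 31.2 and 31.7 CPM in the si-METTL16 replicates. All silenced samples lay above all controls, and the log2 fold change was 0.30 (95% interval 0.09 to 0.52, adjusted p = 0.0389, edgeR). This call was close to the threshold. It was kept when si-METTL16 replicate 1 was left out and lost when any of the other 5 samples was (adjusted p from 0.0686 to 0.116). METTL3 also shares 388 exon bases with TOX4 on the opposite strand, which stood at 0.31 on the log2 scale (adjusted p = 0.196, edgeR), and the sources used here do not say whether counting used strand.

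METTL14 (ENSG00000145388, chromosome 4 from 118685368 to 118715433), the RNA-binding partner of METTL3, had 25.3, 26.5 and 22.4 CPM in control and 22.4, 27.6 and 21.3 CPM in silenced replicates 1, 2 and 3. The groups overlapped, and the log2 fold change of -0.06 had a 95% interval from -0.36 to 0.24 (adjusted p = 0.755, edgeR), which leaves changes of up to these sizes undetected. In deposited FPKM, METTL3 stood at 0.816 ± 0.0385 of METTL14 in control cells and at 1.06 ± 0.155 in silenced cells (SD, n = 3 each). The lengths behind FPKM are not those of the MANE Select mRNAs for every gene. This ratio therefore compares the groups, and not the level of METTL3 with that of METTL14. The lowest silenced ratio, 0.931, lay above the highest control ratio, 0.859. The FPKM ratios of CBLL1 to ZC3H13 and to WTAP were also separate between the groups, and lower after silencing. These ratios were not tested, and 50.9% of all genes tested had separate groups by their CPM alone.

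**Figure D2:**
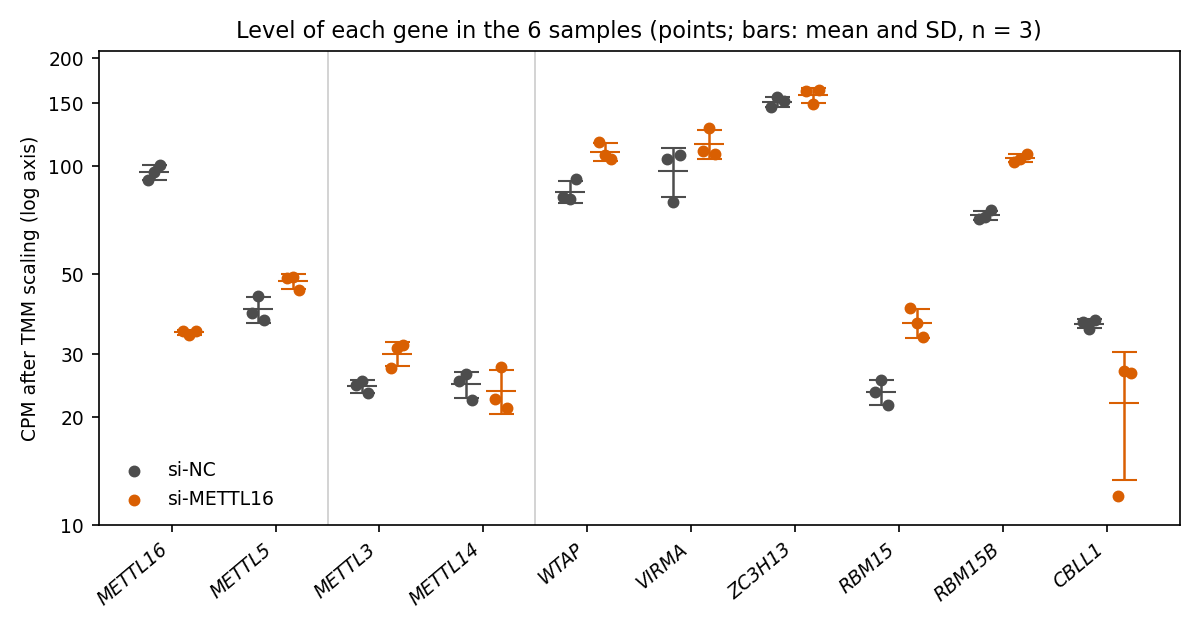
CPM after TMM scaling (log axis) of the 10 genes in the 3 si-NC (grey) and 3 si-METTL16 (orange) samples; points are samples, bars the mean and SD. METTL16 fell from 96.3 to 34.5 CPM on average, RBM15, RBM15B, WTAP and METTL3 lay higher after silencing, and CBLL1 had a single silenced sample, at 12.1 CPM, well below the other two.

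Among the regulatory subunits, the RNA-binding paralogs RBM15 and RBM15B, which bring the complex to its target RNAs, both rose. RBM15 (ENSG00000162775, chromosome 1 from 110338506 to 110346681) had 23.5, 25.5 and 21.6 CPM in control and 40.2, 36.6 and 33.4 CPM in silenced replicates 1, 2 and 3. The lowest silenced sample exceeded the highest control, and the log2 fold change was 0.64 (95% interval 0.39 to 0.89, adjusted p = 0.00352, edgeR). RBM15B (ENSG00000259956, chromosome 3 from 51391268 to 51397908) had 71.5, 72.3 and 75.6 CPM in control and 102.8, 105.2 and 108.1 CPM in silenced replicates. Its replicates were tight in both groups, and its log2 fold change of 0.53 (95% interval 0.39 to 0.67) had an adjusted p of 7.7e-04 from edgeR. RBM15B shares 1325 exon bases with DCAF1 on the opposite strand, whose log2 fold change was -0.02 (adjusted p = 0.832, edgeR). Both calls were kept with each sample left out in turn. In deposited FPKM, RBM15 stood at 0.156 ± 0.0162 of RBM15B in control cells and at 0.169 ± 0.0199 in silenced cells (SD, n = 3 each), with overlapping samples. This ratio compares the groups, and not the levels of the paralogs. In si-NC replicate 1, RBM15 had 397 counts and 1.72 FPKM, and RBM15B had 1209 counts and 10.83 FPKM. Yet the MANE Select mRNA of RBM15 is the shorter, with 3373 against 6624 bases.

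WTAP (ENSG00000146457, chromosome 6 from 159725585 to 159756319), the subunit that anchors METTL3 and METTL14 in nuclear speckles, also rose. Its CPM was 82.0, 81.1 and 92.3 in control and 117, 107 and 105 in silenced replicates 1, 2 and 3. The groups did not overlap, the log2 fold change was 0.37 (95% interval 0.18 to 0.55, adjusted p = 0.0102, edgeR), and the call was kept with each sample left out in turn.

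VIRMA (ENSG00000164944, chromosome 8 from 94487693 to 94553529), the large scaffold of the regulatory part, was not called, at 0.25 on the log2 scale (95% interval -0.05 to 0.55, adjusted p = 0.168, edgeR). Its si-NC samples, at 105, 79.7 and 108 CPM, were spread by the low value of replicate 2, while its si-METTL16 samples had 111, 128 and 108 CPM. The groups came close without overlapping. ZC3H13 (ENSG00000123200, chromosome 13 from 45954465 to 46052759), the zinc finger protein that holds the regulatory part in the nucleus, had 146 to 156 CPM in si-NC and 149 to 163 CPM in si-METTL16 samples. Its interval was the narrowest of the uncalled members, from -0.08 to 0.20 around a log2 difference of 0.06 (adjusted p = 0.466, edgeR).

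CBLL1 (ENSG00000105879, chromosome 7 from 107743697 to 107761667), which encodes a RING-finger protein of the complex also known as an E3 ubiquitin ligase, had the lowest log2 fold change after METTL16, at -0.74 (95% interval -1.39 to -0.09). It did not pass the threshold (adjusted p = 0.0763, edgeR). Its si-NC samples were close together at 36.8, 35.4 and 37.3 CPM, and its si-METTL16 samples had 12.1, 26.9 and 26.6 CPM. All silenced samples lay below all controls, and si-METTL16 replicate 1 lay far below the other silenced samples. Without that sample the log2 fold change was smaller, at -0.45, and passed the threshold (adjusted p = 0.0127, edgeR), while with any other sample left out it ranged down to -0.91 and was not called. The Wald test of DESeq2 on all samples also called it (adjusted p = 0.0179), and the range over all alternatives was from 0.0127 to 0.162. CBLL1 shares 442 exon bases with the antisense RNA CBLL1-AS1, which held 179 counts over the 6 samples against 2973 for CBLL1. The antisense genes RBM15-AS1 and CPB2-AS1, which share exon bases with RBM15 and ZC3H13, held 32 and 7 counts.

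METTL5 (ENSG00000138382, chromosome 2 from 169810081 to 169824931) had 38.9, 43.7 and 37.3 CPM in control and 48.9, 49.3 and 45.2 CPM in silenced replicates 1, 2 and 3. The groups did not overlap, but the log2 fold change of 0.26 (95% interval 0.05 to 0.47) did not pass the threshold after adjustment (adjusted p = 0.0584, edgeR). It passed only without si-NC replicate 2, the highest control (log2 fold change 0.32, adjusted p = 0.0420, edgeR; range over all alternatives 0.0420 to 0.164). METTL5 shares 572 exon bases with SSB on the opposite strand, which was counted 25786 times over the 6 samples against 4438 for METTL5 and fell by 0.44 on the log2 scale (adjusted p = 0.00116, edgeR).

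Levels were compared between genes by FPKM, the deposited value scaled by gene length and sample total. In si-NC cells the order ran from ZC3H13 (13.2 ± 0.433) through RBM15B (11.1 ± 0.340), METTL5 (9.05 ± 0.743), VIRMA (6.85 ± 1.08), WTAP (6.75 ± 0.499), METTL16 (5.76 ± 0.279), CBLL1 (4.12 ± 0.117), METTL14 (2.87 ± 0.243) and METTL3 (2.34 ± 0.0912) to RBM15 (1.72 ± 0.139), as mean ± SD over 3 samples. VIRMA and WTAP overlapped, and every other pair of neighbours was separated in all control samples. The catalytic pair thus had some of the lowest FPKM values, and METTL16 held place 6 of 10 in the controls. However, the lengths behind the deposited FPKM are not those of the MANE Select mRNAs for every gene. In si-NC replicate 1, METTL3 had 417 counts and 2.36 FPKM, and METTL14 had 427 counts and 2.93 FPKM. Their MANE Select mRNAs have 1980 and 6642 bases, and division by these lengths would place METTL3 above METTL14. The order therefore holds for the deposited FPKM only. In si-METTL16 cells METTL16 had the lowest mean, at 2.03 ± 0.0346 FPKM, and RBM15B (15.7 ± 0.473) the highest. After silencing, METTL3, METTL14, RBM15, CBLL1 and METTL16 lay between 2.03 and 2.84 FPKM on average, and each of them overlapped its neighbour in the order.

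**Figure D3:**
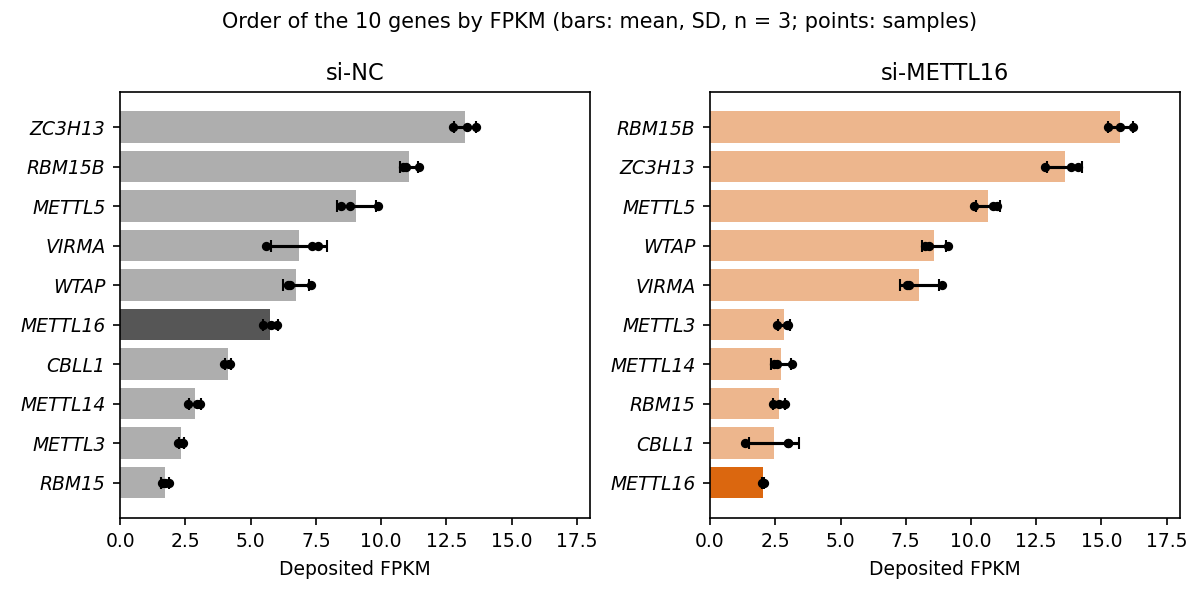
Deposited FPKM of the 10 genes in order of their mean in si-NC (left) and si-METTL16 (right) samples; bars are means with SD (n = 3), points are samples and METTL16 is drawn darker. By mean FPKM, METTL16 moved from place 6 to place 10, where its samples overlapped those of CBLL1, its neighbour in the order. The order depends on the lengths behind the deposited FPKM, which are not the MANE Select mRNA lengths for every gene.

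To compare the target with the other members free of library scaling, METTL16 was expressed as a ratio of counts to each of them within a sample. In si-NC samples METTL16 was counted 3.71 to 4.31 times as often as METTL3, and in si-METTL16 samples 1.09 to 1.27 times. Its ratio to RBM15 differed most between the groups, going from 3.80 to 4.65 in si-NC to 0.865 to 1.05 in si-METTL16 samples, a difference of -2.12 in mean log2 ratio. The ratios to METTL3, METTL14, WTAP, VIRMA, ZC3H13, RBM15, RBM15B and METTL5 were all lower in every silenced sample than in every control, with differences from -2.12 to -1.42. Each of these 8 had p = 0.1 in a two-sided exact permutation test, the smallest that 3 samples against 3 allow, and 0.113 after adjustment over the 9 ratios. All 9 ratios share the METTL16 count, which was itself lower in every silenced sample than in every control. The p-values are therefore not separate results on each member. The ratio to CBLL1 overlapped between the groups. It was 2.49, 2.74 and 2.70 in control and 2.88, 1.26 and 1.31 in silenced replicates 1, 2 and 3, a difference of -0.65 (p = 0.4, exact permutation test). Without si-METTL16 replicate 1, the difference was -1.04.

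**Figure D4:**
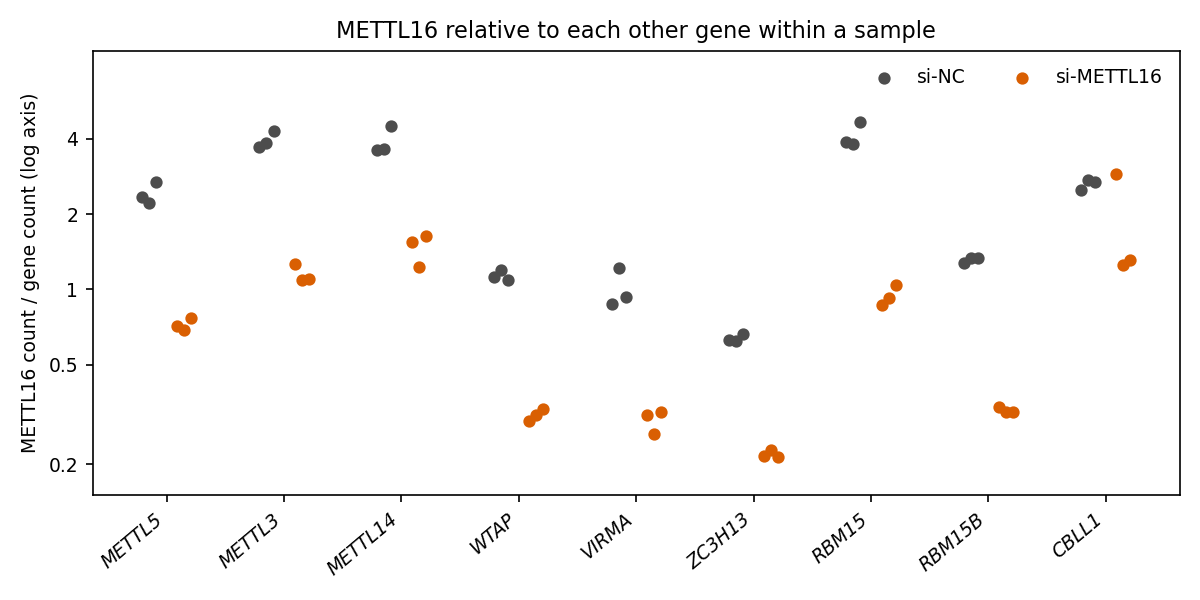
Ratio of the METTL16 count to the count of each other gene (log axis) in the 3 si-NC (grey) and 3 si-METTL16 (orange) samples; points are samples. The groups are separate for every gene but CBLL1, where a single silenced sample lies at 2.88, above the controls.

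Outside the 10 genes, 14 further genes of m6A metabolism were listed, and 4 of them were called, 2 higher and 2 lower, against 35.9% of all genes tested, with a median log2 fold change of 0.07. Among the other N6-adenosine methyltransferases and the METTL5 cofactor, only PCIF1, which methylates the cap-adjacent adenosine, was called, at -0.35 on the log2 scale (adjusted p = 0.0446, edgeR). Its call was lost in 8 of 16 alternatives, and among the 6 that left out a sample it was kept only without si-METTL16 replicate 3. The values of TRMT112, the ribosomal RNA methyltransferase gene ZCCHC4 and METTL4 were 0.11, 0.04 and 0.13 on the log2 scale, none called by edgeR (adjusted p from 0.618 to 0.861). Neither eraser was called by edgeR (FTO 0.30, adjusted p = 0.203; ALKBH5 0.36, adjusted p = 0.0621), but ALKBH5 was called by DESeq2's Wald test (adjusted p = 0.0347). Of the 5 YTH readers, YTHDF1, a cytoplasmic reader, rose (0.49, adjusted p = 0.00491, edgeR), and YTHDF2, YTHDF3, YTHDC1 and YTHDC2 lay between -0.07 and 0.15.

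For the supply of S-adenosylmethionine, MAT2A fell with a log2 fold change of -0.74 (95% interval -0.94 to -0.54, adjusted p = 7.6e-04, edgeR), from 140 ± 15.9 to 82.6 ± 1.62 FPKM (SD, n = 3 each), and all silenced samples were below all controls. MAT2B, the regulatory subunit of the synthetase, had 0.04 (adjusted p = 0.718, edgeR), and AHCY, which clears the product of methyl transfer, rose by 0.21 (adjusted p = 0.0223, edgeR). The AHCY call was kept without si-NC replicate 1 and lost without any of the other 5 samples (adjusted p up to 0.0751, edgeR).

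**Figure D5:**
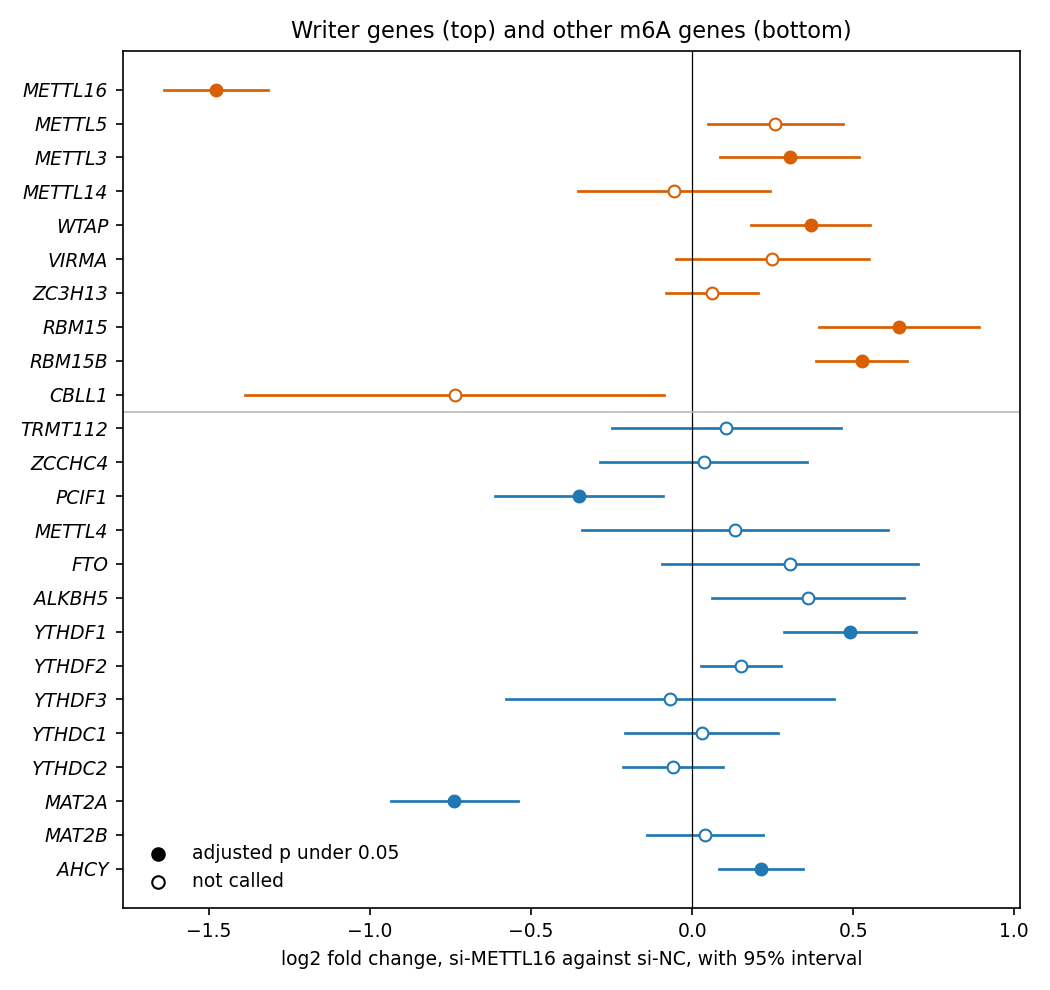
Log2 fold changes with 95% intervals, si-METTL16 against si-NC, of the 10 genes (orange, top) and the 14 further m6A genes (blue, bottom); filled points passed an adjusted p under 0.05. METTL16 at -1.48 and MAT2A at -0.74 were the lowest called values, and RBM15 at 0.64 the highest.

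In the METTL family by name, 31 other symbols begin with METTL and a digit, pseudogenes and a divergent transcript included, and 21 of them were tested. Their median log2 fold change was 0.07, with 4 called higher and 2 lower, METTL3 being among the former, where 18.4% and 17.5% of all genes tested were called. METTL2A and METTL2B, tRNA methyltransferase genes that are close copies and could share reads, rose by 0.56 and 0.37 (adjusted p = 0.00388 and 0.00771, edgeR). METTL17, needed for the mitochondrial ribosome, rose by 0.59 (adjusted p = 0.00847, edgeR). METTL23 fell by 0.90 (adjusted p = 0.00218, edgeR). METTL27 was the only tested family gene with a lower log2 fold change than METTL16, at -2.78 (adjusted p = 0.026, edgeR), and it rested on 17, 12 and 16 counts in si-NC against 1, 5 and 0 in si-METTL16 samples. Its call was kept without si-METTL16 replicate 2, where the log2 fold change was -4.60, and lost without any of the other 5 samples (-2.91 to -2.17, adjusted p up to 0.0863, edgeR).

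The genes whose log2 CPM followed METTL16 most closely over the 6 samples, among 7474 genes at or above the median level, were UHMK1, LRRFIP1, SDHDP6, LPCAT2 and GM2A, with Pearson's r from 0.99883 to 0.99943. Those running most opposite were CDC42EP3, SLFN13, HMGB3, ADA and CHGB, with r from -0.99992 to -0.99855. Because the samples form separate groups, these values mainly rank genes by how tightly they separate the groups. No member of the writer complex was among them, but so short a list out of 7474 genes says nothing about those members.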

How the data were processed

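RNA-seq of 6 PANC-1 samples (3 si-NC, 3 si-METTL16, grouped and numbered by their titles) was used. The authors deposited raw counts per gene and FPKM values, which are counts scaled by gene length and sample total. The lengths used are not those of the MANE Select mRNAs for every gene, which limits comparisons of FPKM between genes. The submitters' processing notes name HISAT2 2.0.4, StringTie 1.3.0 and GRCh38, and the counting program, annotation release and use of strand are not given in the sources used here. In the table, 27 symbols that had become dates were restored from gene identifiers. The members and lists were chosen with earlier results of these data known.

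Counts were scaled by TMM, filtered by filterByExpr (minimum count 10, minimum total 15) and tested by the quasi-likelihood functions glmQLFit and glmQLFTest (R 4.3.3, edgeR 4.0.16). P-values were adjusted over 15089 genes by Benjamini-Hochberg, with a threshold of 0.05. The study names limma; a count test was used because counts were deposited. The F statistic gave each fold change a standard error, and the moderated degrees of freedom its 95% interval. Precision is limited by 3 samples per group, and nothing but the word triplicates says they were separate cultures. Ratios were compared with exact permutation tests in scipy 1.17.1. Correlations used log2 CPM with a prior count of 2. Named genes were all members, 14 listed m6A genes, called METTL family genes and the 5 genes most like and most opposite METTL16. Coordinates are those of the table, and siRNA sites and exon overlaps come from GENCODE v44. Alternatives were a replicate block, each sample left out, other filters, DESeq2 size factors, total counts, DESeq2 1.42.0, limma 3.58.1 on voom and on log2(FPKM + 1) or log2(FPKM + 0.1) with a mean FPKM of at least 1, and an adjusted p under 0.01. The scripts were tested on simulated data.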

Additional observations from a re-analysis of the deposited data

How the results depend on the processing

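METTL16 was called lower in all 16 alternatives (log2 fold change -1.52 to -1.15, the smallest on the log2(FPKM + 1) scale, which understates low genes), as RBM15, RBM15B and WTAP were called higher. Of the members, 4 to 6 were called with a sample left out. At an adjusted p under 0.01, where 3035 genes were called in all, 3 members were called: METTL16, RBM15 and RBM15B. WTAP just missed this stricter threshold (adjusted p = 0.0102, edgeR). METTL3 lost its call in 10 of 16 alternatives. Of the 14 further m6A genes, 2 to 3 were called with a sample left out, fewest without si-NC replicate 2 or 3. By CPM, which ignores length, METTL16 took place 3 rather than 6 among the members in si-NC, and place 7 rather than 10 in si-METTL16 samples.

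With a sample left out, uncalled genes changed sign: METTL14 (-0.18 to 0.019), TRMT112 (-0.016 to 0.27, called without si-METTL16 replicate 1), ZCCHC4 (-0.079 to 0.12), METTL4 (-0.044 to 0.28), YTHDF3 (-0.20 to 0.14), YTHDC1 (-0.043 to 0.12) and MAT2B (-0.024 to 0.077). ALKBH5 was called without si-METTL16 replicate 2 (0.45, adjusted p = 0.0392, edgeR). The cause was not tested.

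Same-numbered samples of the groups deviated together with correlations of 0.0253, 0.0371 and 0.0298, too low to pair them, although each sample correlated best with its own number. With the replicate number as a block, 4 members were called. METTL3, PCIF1 and METTL27 lost their calls (adjusted p = 0.0724, 0.063 and 0.0642, edgeR), ALKBH5 gained one (0.35, adjusted p = 0.0316), and METTL16 had a log2 fold change of -1.48.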
